A study of Homo sapiens with 3 samples.

Results

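This section describes 36 genes of glycolysis, glucose uptake and lactate handling in HT29 cells, an established human colorectal cancer line, after 24 h with a linderapyrone derivative. The genes were taken by name, as a list of transporters, enzymes and regulators, and all probes that the array's annotation assigns to them were taken. Of the 36, 32 had a probe among the 18639 genes on the array, with 40 probes in all, and 31 were detected on all 3 arrays. SLC2A3, which encodes the glucose transporter GLUT3, was detected on none, with spot signals of 81.7, 76.8 and 78.8 with DMSO, 5 µM and 20 µM. PGAM1, ENO2, SLC16A1 and SLC16A3 had no probe, so the main phosphoglycerate mutase and both lactate exporters of the list were not measured here.

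The series holds 3 samples, 1 each with DMSO, the solvent control, with 5 µM and with 20 µM of the derivative, all in DMEM with low glucose and 5% serum. It was made to find genes expressed differently under the compound. The treatment labels give the doses in µM, which is used here, while the sample titles give them in mM. Each group was 1 sample on 1 array, so the variation from culture to culture is unknown and no test was possible. The words higher and lower below describe these 3 arrays.

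Glycolysis splits glucose into pyruvate through a chain of cytosolic enzymes and yields ATP and NADH. Lactate dehydrogenase then turns pyruvate into lactate, which restores NAD+ and lets the chain run on. Colorectal cancer cells take up much glucose and release lactate even where oxygen is present. Most steps are served by several isozymes that differ between tissues, and the transcription factor HIF-1 drives many of the genes when oxygen is low.

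The median spot signal of the 24460 gene probes lay between 107 and 117 on the 3 arrays, and 85.6% to 86.2% of them were detected, which means brighter than the mean plus 2 SD of the blank and negative control spots. No spot reached a signal above 58479. Colon epithelium markers were present: all 8 with a probe, of 9 named, were detected on every array. Of these, CDX1 and CDX2 were as dim as many markers of other cells, with spot signals of 130.5 or less. Among markers of other cells with a probe, 3 of 6 for fibroblasts, 3 of 4 each for blood, endothelial and liver cells and 4 of 4 for striated muscle passed the detection threshold on all arrays. Apart from LYZ, none of these had a spot signal over 231. PTPRC, COL1A1, PECAM1 and ALB were detected on no array, with spot signals from 75.9 to 81.3. LYZ, listed as a marker of blood cells, was bright, at 15819, 12100 and 12204 with DMSO, 5 µM and 20 µM.

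Values below are normalized signals in arbitrary units: the background-corrected spot signal plus 50, quantile normalized over the arrays. A log2 ratio compares such signals, so the added 50 makes the ratios of dim genes smaller than the change in signal above background. Probes differ in how they bind, so signals compare arrays for 1 gene and not genes with each other. As a technical yardstick, pairs of probes of the same gene gave an SD of a single log2 ratio of 0.15 for 20 µM against DMSO, 0.11 for 5 µM against DMSO and 0.12 for 20 against 5 µM. This SD pools bright and dim genes, so it may be too small for bright ones, and it holds no variation between cultures. Ratios of at least 0.3 in either direction, about 2 such SDs or more, were counted, as were 2-fold differences.

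At 20 µM the members differed from DMSO in both directions. HKDC1, a hexokinase-like gene, was 2.70-fold higher than in DMSO, and LDHA, the lactate dehydrogenase subunit that favours making lactate, was 2.45-fold lower. No other member was 2-fold apart. Among the 16062 genes detected with both treatments, 0.442% passed 2-fold upward and 0.324% downward. By the smaller threshold of 0.3, 5 of 31 members were higher, against 6.54% of all genes, and 8 of 31 were lower, against 8.23%. Of the members, 12 lay above 0, against 52.8% of all genes, and 19 below, against 47.1%. Median scaling of the arrays gave 3 higher and 10 lower members in place of 5 and 8, and 4.68% higher and 12.2% lower over all genes. The members' median log2 ratio was -0.050, beside 0.0071 for all genes.

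**Figure D1:**
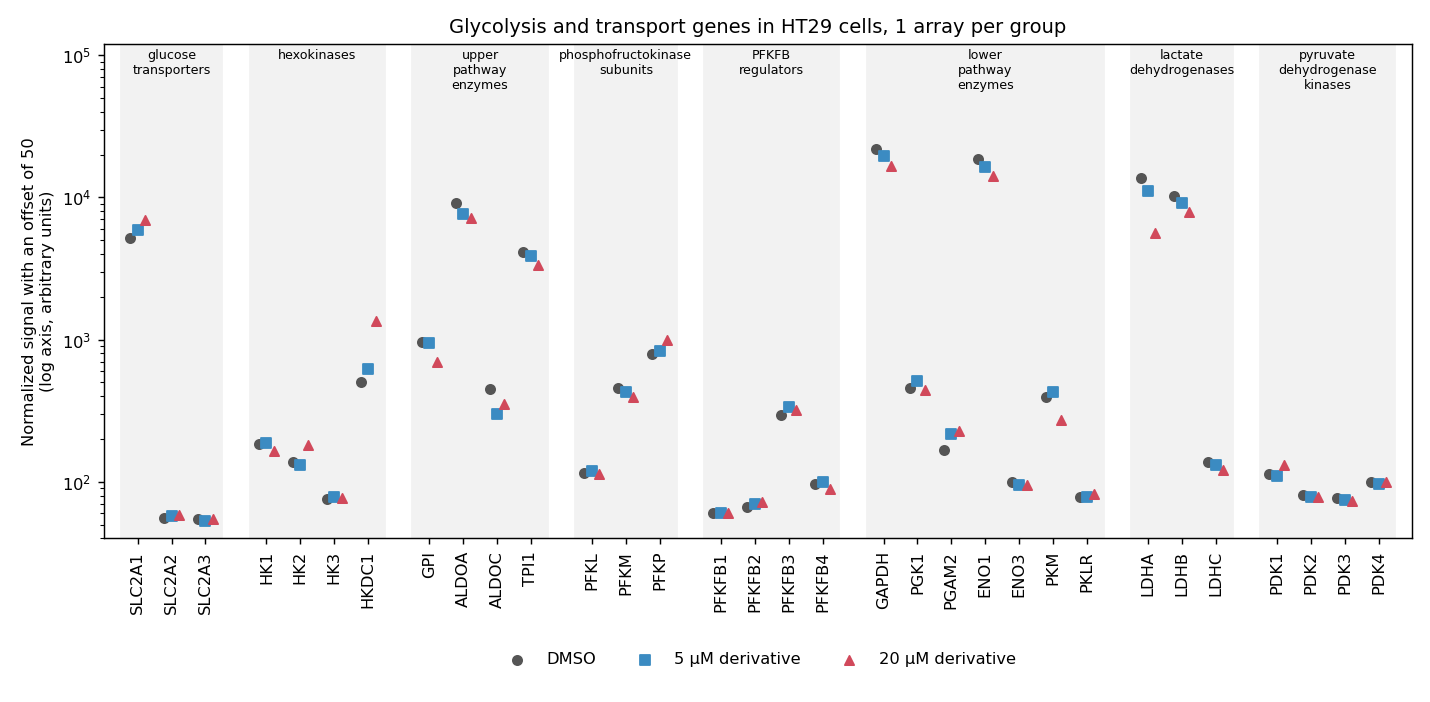
Normalized signal with its offset of 50 (vertical log axis, arbitrary units) of the 32 glycolysis and transport genes with a probe, grouped by role; each point is 1 array, with DMSO, 5 µM and 20 µM. LDHA stands at 5637 at 20 µM against 13793 in DMSO, HKDC1 at 1360.3 against 504, and no other detected member is 2-fold apart. Of the 31 detected members, 18 lie within 0.3 on the log2 scale at 20 µM against DMSO.

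LDHA had normalized signals of 13793, 11113 and 5637 with DMSO, 5 µM and 20 µM. The signal was thus lower at each higher dose, and most of the difference lay between 5 and 20 µM. The log2 ratio of 20 µM to DMSO was -1.29, the 11th lowest of 16062 genes. This ratio was 8.9 times the SD from probe pairs of bright and dim genes pooled. For 5 µM against DMSO it was -0.31, or -0.56 under median scaling, and for 20 against 5 µM it was -0.98. The authors' deposited value table gave the same order, with 7415, 5634 and 2948 with DMSO, 5 µM and 20 µM. The gene had 1 probe, so no other probe could be set beside it.

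HKDC1 had normalized signals of 504, 619 and 1360.3 with DMSO, 5 µM and 20 µM. It was higher at each higher dose, the opposite order to LDHA. Its log2 ratio of 1.43 at 20 µM against DMSO was the 17th highest of 16062 genes, and that of 20 against 5 µM, 1.13, the 13th highest of 16036. The other HKDC1 probe gave 1.12 and 0.81 for these comparisons. For 5 µM against DMSO both probes stood near the threshold, at 0.30 and 0.31, but median scaling left 0.083 for the first.

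**Figure D2:**
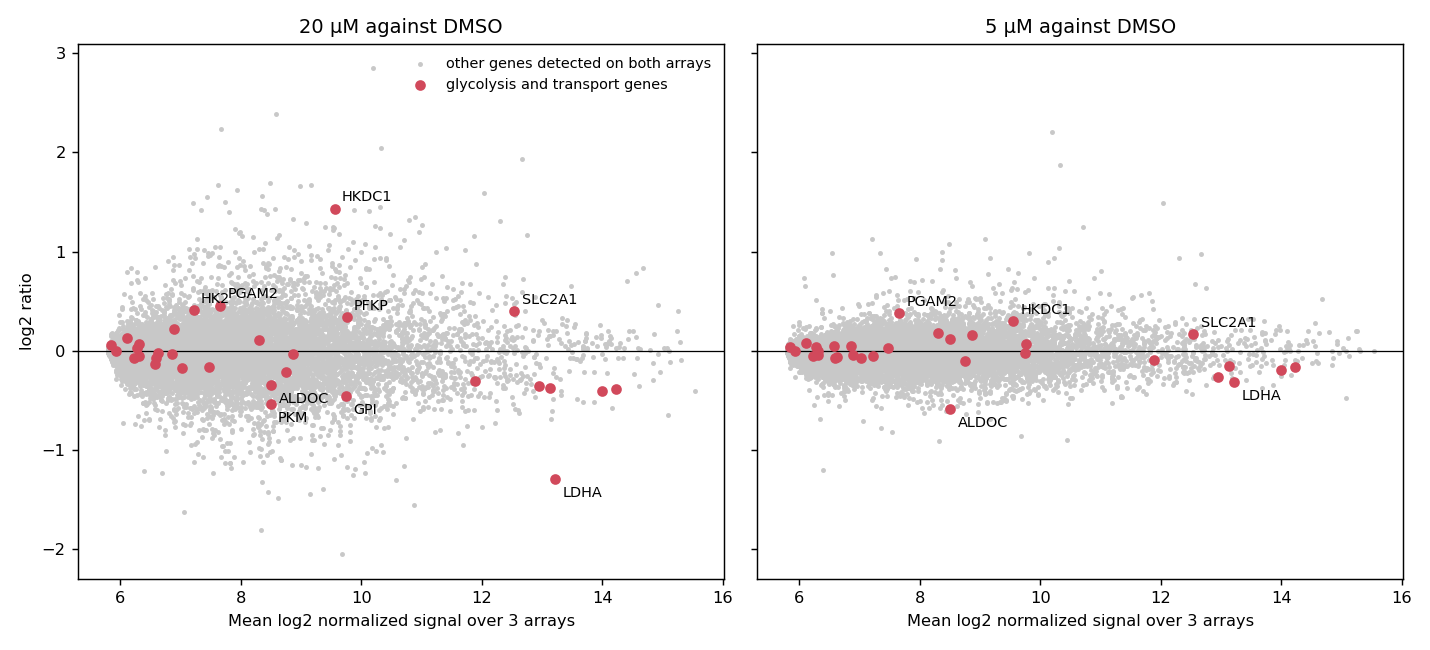
Log2 ratio (vertical) against the mean log2 normalized signal over 3 arrays (horizontal) for all genes detected on both arrays (grey) and for the 31 detected members (red), at 20 µM and at 5 µM against DMSO. LDHA at -1.29 and HKDC1 at 1.43 lie at the edges of the cloud at 20 µM, and ALDOC at -0.58 lies at its lower edge at 5 µM.

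The 250 bases before the start of LDHA, of HKDC1 and of ALDOC are shown because LDHA and HKDC1 had the largest member ratios at 20 µM and ALDOC the largest at 5 µM. The sequences are RefSeq's, on GRCh38.p14, 5′ to 3′ on the gene's own strand, with each match to ACGTG on either strand in capitals. ACGTG is a form of the core letters that HIF-1 binds. The other form, GCGTG, was not searched or marked, so genes without ACGTG may still hold the core. LDHA lies on the plus strand at chr11:18394313-18394562, ALDOC on the minus strand at chr17:28576896-28577145 and HKDC1 on the plus strand at chr10:69220082-69220331.
LDHA: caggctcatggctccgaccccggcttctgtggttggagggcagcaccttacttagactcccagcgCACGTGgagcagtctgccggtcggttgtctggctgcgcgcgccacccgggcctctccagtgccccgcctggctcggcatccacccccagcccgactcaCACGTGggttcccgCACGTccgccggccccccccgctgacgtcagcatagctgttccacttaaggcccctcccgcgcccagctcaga
ALDOC: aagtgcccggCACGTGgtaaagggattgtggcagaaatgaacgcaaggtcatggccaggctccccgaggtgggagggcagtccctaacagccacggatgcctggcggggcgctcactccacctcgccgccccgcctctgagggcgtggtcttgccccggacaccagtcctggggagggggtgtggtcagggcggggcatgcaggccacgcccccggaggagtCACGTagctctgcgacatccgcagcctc
HKDC1: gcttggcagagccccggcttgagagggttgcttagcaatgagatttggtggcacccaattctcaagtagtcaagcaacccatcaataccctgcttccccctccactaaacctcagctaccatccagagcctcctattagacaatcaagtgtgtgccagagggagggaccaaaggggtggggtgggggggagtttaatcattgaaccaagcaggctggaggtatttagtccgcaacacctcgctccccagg

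LDHA held ACGTG at 3 places, ALDOC at 2 and HKDC1 at 0. At 2 of the places in LDHA and 1 in ALDOC the letters are CACGTG, which reads the same on both strands, contains ACGTG and is also the E box that MYC binds. Of the 36 members, 33 had a promoter in the RefSeq table, and PFKFB2, SLC16A1 and SLC2A3 did not. In the 250 bases before the start, ACGTG was found for 11 of these 33, or 33.3%, and in the same window for 18.7% of 27305 genes. CACGTG was found there for 4 of the 33, namely ALDOC, GAPDH, LDHA and PKLR, and for 6.49% of all. The 10 detected members with ACGTG had a median log2 ratio of -0.26 at 20 µM against DMSO, with a range from -1.29 to 0.41, and the 20 without it one of -0.025, from -0.53 to 1.43. The ranges overlap widely, and a match to these letters is a description of the sequence, not a binding site.

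Glucose enters most cells through facilitative transporters. SLC2A1, which encodes the widely expressed transporter GLUT1, had normalized signals of 5217, 5874 and 6884 with DMSO, 5 µM and 20 µM. It was higher at each higher dose, by 0.40 on the log2 scale at 20 µM against DMSO; median scaling gave 0.26, and at 5 µM turned its ratio of 0.17 to -0.082. SLC2A2, the low-affinity transporter GLUT2 of liver and absorptive gut, gave spot signals of 82.8, 81.0 and 82.7, barely above the detection thresholds of 82.5, 79.4 and 80.2. Its ratios of 0.062 and 0.044 therefore say little about the transcript.

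Hexokinases add the first phosphate and trap glucose in the cell. HK2, the inducible isozyme of many tumours, had 137, 132 and 181 with DMSO, 5 µM and 20 µM. Its signal stood out at 20 µM alone, with a log2 ratio of 0.41 against DMSO and of 0.46 against 5 µM; its other probe gave 0.30 and 0.16. HK1, the broadly expressed isozyme, had 183, 186 and 164, with a log2 ratio of -0.16 at 20 µM. That ratio was only 1.1 times the SD from probe pairs, so its direction says little. HK3, known from blood cells, lay close to the blank level, with ratios of 0.026 at 20 µM and 0.039 at 5 µM. HKDC1 and HK1 are next to each other on chromosome 10, and their ratios at 20 µM were 1.43 and -0.16.

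GPI, ALDOA and ALDOC, which serve steps on either side of phosphofructokinase, were lower by at least 0.3 at 20 µM. GPI, glucose 6-phosphate isomerase, had normalized signals of 955, 939.7 and 699 with DMSO, 5 µM and 20 µM. Its log2 ratio was -0.45 at 20 µM and -0.023 at 5 µM, and median scaling gave -0.56 and -0.24. ALDOA, the main aldolase outside liver and brain, had 9129, 7618 and 7164, with -0.35 at 20 µM and -0.26 at 5 µM. TPI1, triose phosphate isomerase, had 4137, 3893 and 3362, with -0.299 at 20 µM, just inside the threshold, and -0.088 at 5 µM. Under median scaling the ratios at 5 µM passed the threshold, at -0.49 for ALDOA and -0.33 for TPI1, and TPI1 stood at -0.43 at 20 µM.

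ALDOC, the aldolase best known from brain, had the most negative member ratio at 5 µM. Its normalized signals were 451, 301 and 355 with DMSO, 5 µM and 20 µM. The lowest value was thus at the lower dose. The log2 ratio of -0.58 at 5 µM was the 16th lowest of 16075 genes, and that at 20 µM was -0.34. The other ALDOC probe gave -0.40 and -0.26.

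Phosphofructokinase commits the sugar to glycolysis, and its subunits differed from each other. PFKP, the platelet-type subunit, had 786, 826 and 993 with DMSO, 5 µM and 20 µM, a log2 ratio of 0.34 at 20 µM. Median scaling gave 0.24 for it at 20 µM and turned its ratio of 0.073 at 5 µM to -0.14. PFKM, the muscle-type subunit, had 459, 429 and 397, a ratio of -0.21, and PFKL, the liver-type one, stood at -0.027 at 20 µM. The mean spot signal of PFKL was only 1.8 times the blank level, so its ratio says little. The bifunctional PFKFB enzymes, which make and remove the activator fructose 2,6-bisphosphate, all stayed within 0.3. However, PFKFB1, PFKFB2 and PFKFB4 had mean spot signals of only 1.09, 1.2 and 1.53 times the blank level. Ratios of such dim genes say little. PFKFB3, the form with the highest kinase activity, had 295, 334 and 319, and the ratios of the 4 genes lay between -0.13 and 0.13 at 20 µM and between -0.00061 and 0.18 at 5 µM.

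Below the triose phosphates, GAPDH and ENO1 were lower by at least 0.3 at 20 µM and by less at 5 µM. GAPDH, which yields the NADH that lactate dehydrogenase later uses, had normalized signals of 21811, 19497 and 16666 with DMSO, 5 µM and 20 µM. Its log2 ratio was -0.39 at 20 µM and -0.16 at 5 µM, but its other, dimmer probe gave -0.037 and 0.026. ENO1, the ubiquitous enolase, had 18678, 16377 and 14079, with -0.41 at 20 µM and -0.19 at 5 µM. Under median scaling the ratios at 5 µM passed the threshold, at -0.34 for GAPDH and -0.42 for ENO1. PGK1, phosphoglycerate kinase, had 455, 508 and 444, a ratio of -0.036 at 20 µM and of 0.16 at 5 µM, which median scaling turned to -0.039.

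PKM encodes the pyruvate kinases M1 and M2, the last step to pyruvate. It had normalized signals of 395, 431 and 274 with DMSO, 5 µM and 20 µM. The signal was low at 20 µM alone, with a log2 ratio of -0.53 against DMSO and of -0.66 against 5 µM, the 88th lowest of 16036 genes. The other probe gave -0.30 and -0.35. The files do not say which splice form either probe reads. PKLR, the pyruvate kinase of liver and red cells, lay close to the blank level, at 0.067.

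PGAM2, the phosphoglycerate mutase of muscle, was higher by at least 0.3 at both doses, but by 0.24 at 5 µM under median scaling. It had 167, 217 and 229 with DMSO, 5 µM and 20 µM, so both treated arrays were higher, with log2 ratios of 0.46 and 0.38. The 4 striated muscle markers CKM, MYH2, ACTN3 and MB had ratios from -0.044 to 0.11 at 20 µM. Their spot signals lay between 85.3 and 142.8 over all arrays, so the ratios of these dim markers say little. Whether the probe also binds the PGAM1 transcript was not tested. ENO3, the enolase of muscle, had ratios of -0.072 and -0.070 at 20 and 5 µM. Its mean spot signal was only 1.55 times the blank level, so these ratios say little.

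Of the 3 lactate dehydrogenase genes, LDHA and LDHB were lower by at least 0.3 at 20 µM, and LDHA alone at 5 µM. LDHB, the subunit that favours turning lactate into pyruvate, had normalized signals of 10154, 9129 and 7864 with DMSO, 5 µM and 20 µM, a log2 ratio of -0.37 at 20 µM. At 5 µM its ratio was -0.15, but -0.41 under median scaling, which passes the threshold. LDHC, known from testis, had 137, 130.1 and 122 and a ratio of -0.17. Its mean spot signal was only 1.98 times the blank level, so the offset makes this ratio smaller. LDHA and LDHC are next to each other on chromosome 11. Their ratios at 20 µM were -1.29 and -0.17.

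The pyruvate dehydrogenase kinases, which shut pyruvate out of the mitochondrial citrate cycle by switching off pyruvate dehydrogenase, all stayed within 0.3. PDK1, a known HIF-1 target, had 113, 110.5 and 132 with DMSO, 5 µM and 20 µM. Its log2 ratio was 0.22 at 20 µM, 0.12 on its other probe and 0.36 in the authors' value table. PDK2, PDK3 and PDK4 had ratios from -0.075 to -0.023 at 20 µM and from -0.065 to -0.046 at 5 µM. Their mean spot signals were only 1.33, 1.27 and 1.57 times the blank level, so these ratios say little.

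**Figure D3:**
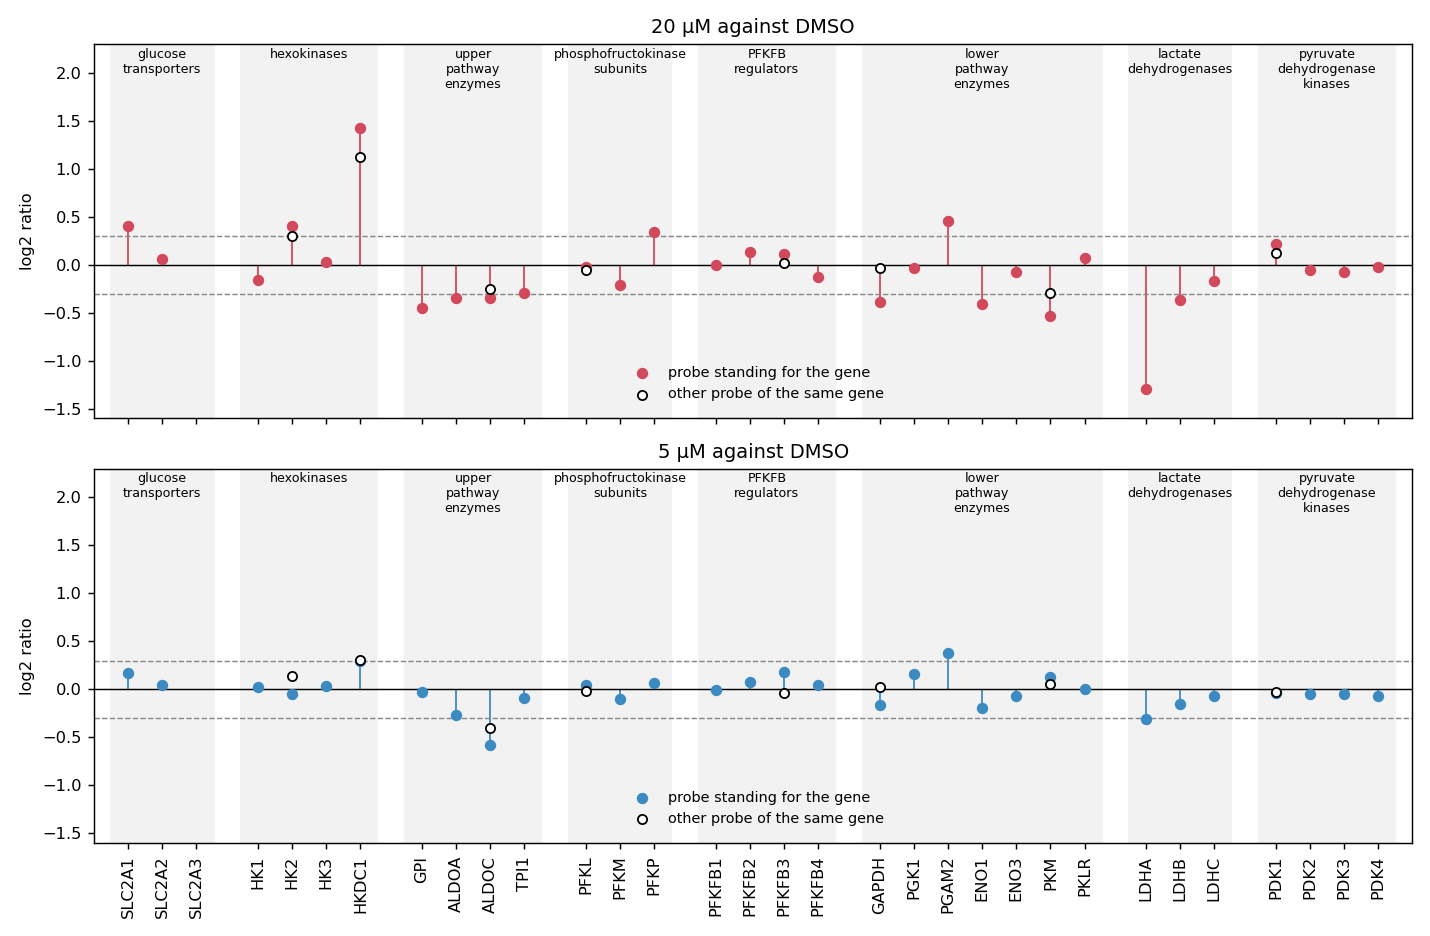
Log2 ratio (vertical) of each detected member to DMSO at 20 µM (upper panel) and 5 µM (lower panel), grouped by role; filled points are the probe that stands for the gene, open points the other probe of the 8 genes with 2, and dashed lines mark ratios of 0.3 and -0.3. At 20 µM, HKDC1 at 1.43 and LDHA at -1.29 pass all others, and both probes of each of the 8 genes lie on the same side of 0.

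At 5 µM the members stayed close to DMSO. None was 2-fold apart, beside 0.0498% of 16075 genes that were 2-fold higher and 0.00622% that were 2-fold lower. By the threshold of 0.3, PGAM2 was higher, beside 2.16% of all genes, and ALDOC and LDHA were lower, beside 2.38%. HKDC1, at 0.298, was just inside. The median of the 31 members was -0.023, against 0.0043 for all genes. Above 0 lay 14 members, against 52.0% of all genes, and below it 17, against 47.9%. Median scaling gave 0 higher and 8 lower members, with 0.697% higher and 11.1% lower over all genes, and it turned the sign of 7, all of which had ratios of 0.17 or less in size.

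Between the doses, 20 against 5 µM, 1 member was 2-fold apart, HKDC1, which was 2.20-fold higher. Of 16036 genes, 0.131% passed 2-fold upward and 0.0935% downward. LDHA, 1.97-fold lower, came just short. HKDC1 and HK2 were higher by at least 0.3, beside 4.58% of all genes, and LDHA, PKM and GPI were lower, beside 4.56%. Above 0 lay 12 members, against 49.5% of all genes, and below it 19, against 50.4%. Median scaling gave 5 higher and 3 lower members, with 7.09% higher and 2.79% lower over all genes. Both doses share the DMSO array, so their ratios to it are not independent of each other. The ratio of 20 to 5 µM uses that array only through the shared quantile normalization. Its log2 value is the difference of the log2 ratios to DMSO.

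Pairs of probes of the same gene served as a check within the arrays. At 20 µM against DMSO, both probes of all 8 members with a pair, ALDOC, GAPDH, HK2, HKDC1, PDK1, PFKFB3, PFKL and PKM, lay on the same side of 0. PFKL, at -0.027 and -0.055, and PFKFB3, at 0.11 and 0.016, were within the SD of 0.15 on both probes. Their shared side therefore says little. Both probes of a pair read the same RNA, so a shared side does not speak to variation between cultures. At 5 µM, 4 of 8 pairs did, and the other 4 had ratios of at most 0.18 in size on the probe that stands for the gene. The widest gap at 20 µM was 0.35, that of GAPDH. ALDOA, ENO1, TPI1, PGK1, LDHB and LDHA had 1 probe each, and whether these probes also bind transcripts of related gene copies was not tested.

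The lower ratios at 20 µM lay among the brighter members. A spot signal over 4 times the blank level in the mean of the 3 arrays split the 31 detected members into 15 brighter and 16 dimmer ones, a split made after the values were seen. Of the 15, 8 were lower by at least 0.3 and 3 higher, while of the 16, 0 were lower and 2 higher. Of all 3876 genes as bright, 18.3% were lower and 15.8% higher by that amount; of the 12186 dimmer genes, 5.02% were lower and 3.60% higher. The ratios of dim genes are also those that the added 50 makes smallest.

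**Figure D4:**
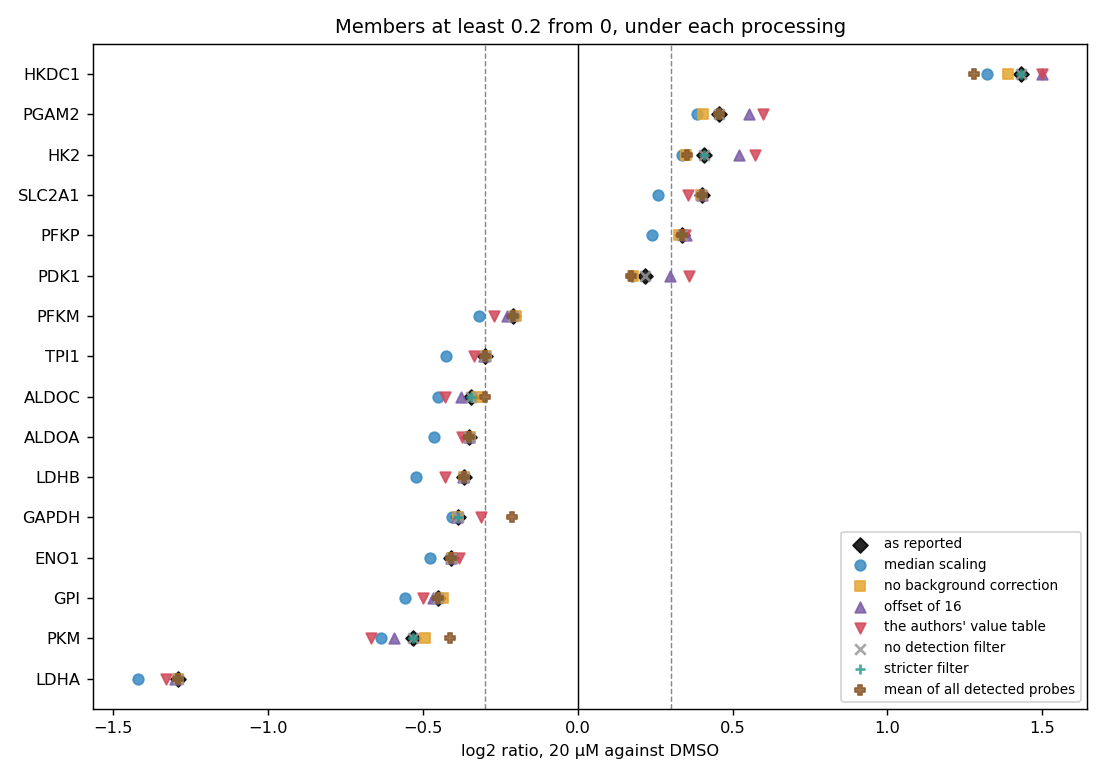
Log2 ratio of 20 µM to DMSO (horizontal) under each way of processing (symbols) for the 16 members at least 0.2 from 0; dashed lines mark 0.3 and -0.3. LDHA lies between -1.42 and -1.29 and HKDC1 between 1.28 and 1.50 under all of them, and no member shown crosses 0.

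HIF-1 targets outside glycolysis served as a comparison for genes that share this factor. Of 16 detected, 4 were higher by at least 0.3 at 20 µM, beside 6.54% of all genes, and 0 were lower, beside 8.23%, with a median of 0.062, while median scaling gave 4 and 1. CA12, a carbonic anhydrase of the cell surface, had 475, 576 and 1125.9 with DMSO, 5 µM and 20 µM, a log2 ratio of 1.24 at 20 µM. KDM3A, a histone demethylase, stood at 0.79, ERO1A, an oxidase of the endoplasmic reticulum, at 0.59, and NDRG1 at 0.50. VEGFA, at 0.087, and EGLN3, at 0.064, lay near 0, and ADM, the vasodilator adrenomedullin, stood at -0.29. Of the 16, 11 lay above 0 and 5 below.

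HIF1A, which encodes the regulated subunit of HIF-1, had normalized signals of 460.2, 377 and 329 with DMSO, 5 µM and 20 µM. Its log2 ratio was -0.49 at 20 µM and -0.29 at 5 µM. Of 7 detected HIF subunits and regulators, HIF1A alone was lower by at least 0.3 at 20 µM, beside 8.23% of all genes. That share, 14.3%, rests on 1 gene, and 0 were higher, beside 6.54%. EPAS1, HIF3A, ARNT and ARNT2 lay close to the blank level, with spot signals of 103 or less. VHL, which marks the HIF subunits for breakdown, stood at 0.23. The protein, through which HIF-1 is chiefly controlled, was not measured. Of the glucose-sensing factors MLXIP and MLXIPL and their targets TXNIP and ARRDC4, none passed 0.3 at 20 µM. Of all genes, 8.23% were lower and 6.54% higher by that amount. However, MLXIP, MLXIPL and ARRDC4 lay close to the blank level, with spot signals of 114.9 or less, so their ratios say little. TXNIP, which restrains glucose uptake, had 169, 148 and 161 with DMSO, 5 µM and 20 µM.

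The pentose phosphate pathway branches off at glucose 6-phosphate and yields NADPH. Of its 7 detected genes, 2 were higher by at least 0.3 at 20 µM, beside 6.54% of all genes, and 0 were lower, beside 8.23%, with a median of 0.099 that median scaling turned to -0.013. PGD, 6-phosphogluconate dehydrogenase, had 2632, 2976 and 3874 with DMSO, 5 µM and 20 µM, a log2 ratio of 0.56. PGLS, 6-phosphogluconolactonase, had 741, 989 and 1029, a ratio of 0.48. Both kept ratios above 0.3 at 20 µM under median scaling, at 0.41 and 0.38.

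Downstream of pyruvate, 2 of 9 detected genes of its entry into mitochondria were lower by at least 0.3 at 20 µM, beside 8.23% of all genes, and 0 were higher, beside 6.54%, with a median of -0.10. MPC2, a subunit of the mitochondrial pyruvate carrier, had 629, 563 and 467 with DMSO, 5 µM and 20 µM, a ratio of -0.43, while its partner MPC1 stood at 0.084. PDHB, a subunit of pyruvate dehydrogenase, stood at -0.31, and DLAT and DLD, other subunits of that complex, at -0.21 and -0.026. Of 13 detected isozymes, transporters and carriers not among the members, 1 was lower by at least 0.3, a share of 7.69% that is close to that of all genes, and 0 were higher: BPGM, which makes 2,3-bisphosphoglycerate, at -0.45. BSG, the partner that lactate transporters need at the cell surface, stood at -0.24. BPGM itself was dim, with spot signals of 154, 127 and 111 with DMSO, 5 µM and 20 µM. Apart from BSG and BPGM, the genes of this list had spot signals of 128.8 or less, so their ratios say little.

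**Figure D5:**
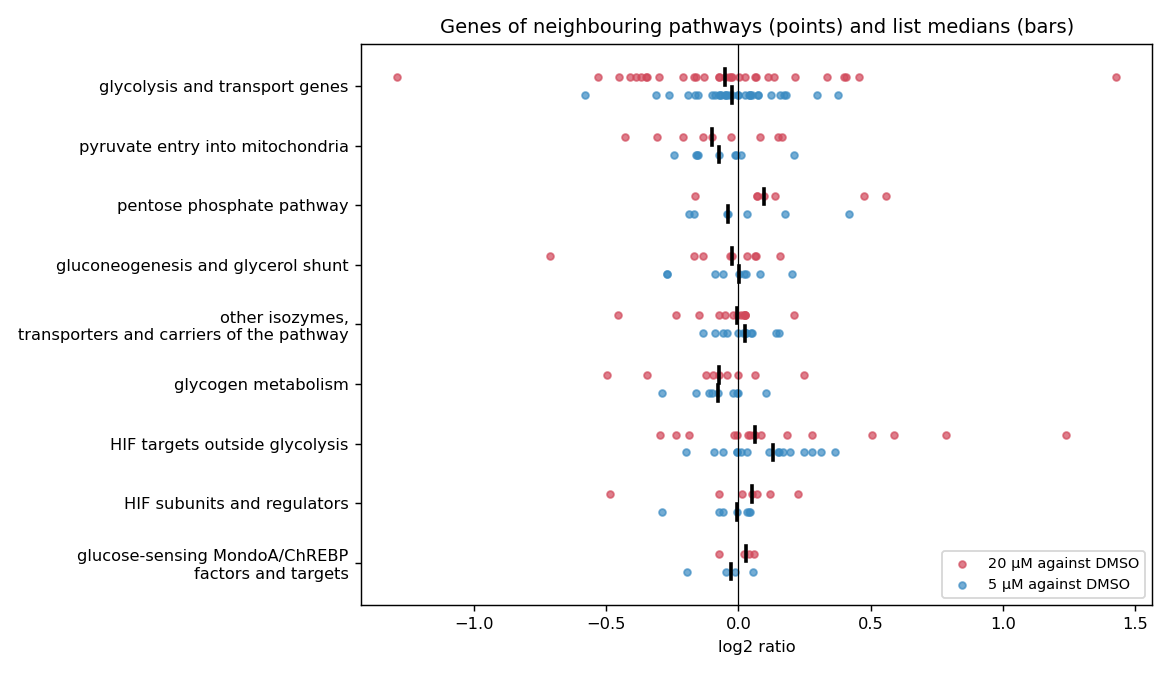
Log2 ratios to DMSO (horizontal) of the detected members and of the genes of 8 neighbouring lists, at 20 µM (red, upper row of each pair) and at 5 µM (blue, lower row); each point is a gene and each black bar a list median. The members span -1.29 to 1.43 at 20 µM, and CA12 among the HIF targets stands at 1.24.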

How the data were processed

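RNA of 3 HT29 samples was measured on 1-colour Toray arrays, 1 array per group. The authors' scanner files hold, per the file headers, the median spot intensity at 635 nm from 3 gains, with no background taken off; the software that read the spots was not stated. The files' background column was not used here. The authors' deposited value table holds linear intensity with an equal median of 25 on each array. The spot signals were corrected with normexp (limma 3.58.1, R 4.3.3, offset 50), put on a log2 scale and quantile normalized with all 24460 gene probes. This procedure was tested on simulated arrays with changes put into brighter genes only, so that test does not cover dim genes. Detection used 480 blank and negative control spots, trimmed by 5% at each end. Names came from the platform annotation: 21707 probes had 1 symbol and 0 several; 21675 matched a current gene record. Where a gene had several probes, the one detected on most arrays, then the brightest, stood for it. Tables and plots used Python 3.11.15, numpy 2.4.6, pandas 2.3.3 and matplotlib 3.10.9. All members were accounted for; signals were printed for the 12 largest ratios at 20 µM, the 6 largest in each other comparison and the brightest of each isozyme family, with up to 4 genes of each neighbouring list. A few others are named for their role, chosen after their values were seen. Motifs were searched in the 250 bases before each start, and promoters of chromosome 8 were not used here. The members and lists were chosen with earlier results of these data known. Precision is limited by the number of arrays.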

Additional observations from a re-analysis of the deposited data

How the results depend on the processing

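No replicate could be left out and no paired analysis was possible because each group had 1 array. At 20 µM against DMSO, no member changed sign under any of the 7 alternatives. The members' median there was -0.29 in the authors' value table and -0.26 under the stricter filter, which leave 21 and 18 members, and the count higher by 0.3 was 3 under median scaling, whose cause was not tested. At 5 µM, median scaling gave 0 higher and 8 lower, and both the offset of 16 and the mean of all probes gave 2 higher. For 20 against 5 µM, the median was -0.185 under the stricter filter, which left 1 of 17 members higher. The count higher was 5 under median scaling and 5 in the authors' table, and the mean of both HKDC1 probes left 0 members 2-fold higher. Of the single-gene ratios, 5 moved by more than the SD from probe pairs and 189 did not at 20 µM, 18 and 175 at 5 µM, and 11 and 182 between the doses; none that was at least 0.3 from 0 turned its sign. The dimmest members lie within 1.05 times the blank level, where signal over background limits any ratio.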

Other observations

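At 20 µM against DMSO, 8.23% of all genes were lower and 6.54% higher by at least 0.3 on the log2 scale. Of 9 detected genes of gluconeogenesis and the glycerol shunt, 1 was lower by that amount and 0 were higher. That share, 11.1% beside 8.23% of all genes, rests on 1 gene. PCK1, FBP2, G6PC1, G6PC3, GPD1 and GPD1L were dim, with spot signals of 158.5 or less on every array. Their ratios, and so the count for this list, say little. The lower gene was FBP1. It encodes fructose-1,6-bisphosphatase, which opposes phosphofructokinase, and had normalized signals of 675, 560.4 and 412 with DMSO, 5 µM and 20 µM. The signal was lower at each higher dose, with a log2 ratio of -0.71 at 20 µM and of -0.82 both under median scaling and in the authors' deposited table. PCK2, the mitochondrial PEP carboxykinase, stood at 0.16. Of 9 glycogen genes, 2 were lower by at least 0.3 and 0 were higher: PYGL, the liver-type phosphorylase, at -0.50, and GYS1, the muscle-type glycogen synthase, at -0.35. PYGB, the brain-type phosphorylase, stood at 0.25. The median over the 9 was -0.072.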
